A study of Drosophila melanogaster with 6 samples.

Results

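Strain differences between Canton-S and D18, both wild-type laboratory strains of Drosophila melanogaster, were examined on the 4 of the 6 arrays of the series whose yolk protein signal was high. The 4 arrays, Canton-S replicates 1 and 2 and D18 replicates 1 and 3, were selected on the measured signal of the yolk protein genes Yp1, Yp2 and Yp3 and of male accessory gland genes. Across the 4 arrays the 3 yolk protein genes lay between 12.61 and 13.38 on the log2 scale, and on Canton-S replicate 3 and D18 replicate 2, which were left out, they lay between 3.53 and 5.97. The median over 26 accessory gland genes was 2.49 to 2.67 on the 4 arrays and 10.88 and 10.23 on the arrays left out. These levels chose the arrays and are given as a description. GEO's labels give no sex. The flies were adults kept at 25 °C on cornmeal-molasses medium with antibiotic, labelled as 3 days old, and no transgene, mutation or treatment is named for either strain. Per the study's methods, RNA came from whole flies of both sexes aged 2–3 days, 15 per extraction, so each array is a pool of animals and of tissues. The methods do not give the sexes array by array, and the levels above do not show a like mix of sexes on all 6.

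In adult female flies the fat body and the follicle cells of the ovary make the yolk proteins, and the follicle cells then lay down the vitelline membrane and the chorion of the eggshell. Accessory glands are organs of the male that make seminal fluid proteins. Laboratory strains of this species are known to differ in regulatory alleles and in the transposable elements they carry.

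The Affymetrix Drosophila Genome 2.0 array measures transcripts with probe sets, each reduced to 1 log2 value per array by the RMA algorithm. Of these, 18769 were tested and 183 control probe sets were not. The 4 arrays correlated at r = 0.964 to 0.982 over all probe sets, and at 0.716 to 0.762 with the 2 arrays left out. Testis genes were low as well, and the median of 31 testis and sperm genes was 2.99, 2.67, 2.88 and 2.86 (Canton-S replicates 1 and 2, D18 replicates 1 and 3), near the arrays' lower quartiles of 2.96 to 3.09. In a whole-fly pool, fewer cells of a type and less RNA per cell cannot be told apart.

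More probe sets were called in Canton-S than in D18, and the largest differences of named genes were those of fok in Canton-S and of the fatty acid elongase gene Elovl7 in D18. With the study's thresholds, p under 0.01 and over 2-fold, limma called 514 probe sets, of which 418 were upregulated in Canton-S (2.23% of those tested) and 96 in D18 (0.511%). The split was 81.3% to Canton-S as deposited, and 264 against 205 (56.3% to Canton-S) once the arrays were set to a common median, a step that took the median over all probe sets from −0.07 to −0.32. At an adjusted p under 0.05 (limma, Benjamini-Hochberg over all probe sets) 58 remained, 38 upregulated in Canton-S (0.202%) and 20 in D18 (0.107%). With 2 arrays against 2 an exact permutation test cannot go below p = 0.333 (two-sided), so the calls rest on limma's spread shared over probe sets. Whichever single array was dropped, all 58 still passed p under 0.01 and 2-fold, as did 209 of the 514. No probe set reached the adjusted threshold without Canton-S replicate 1 or without Canton-S replicate 2, where 1109 and 2661 had an unadjusted p under 0.05, and 75 and 39 did without D18 replicate 1 and D18 replicate 3. The methods place the repeats 1 week apart, and whether the replicate numbers mark those repeats is not given in the sources used here. If they do, the strain and the extraction cannot be told apart for Canton-S replicate 2 and D18 replicate 3.

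The largest difference of a named gene was that of fok (fledgling of Klp38B), which read 11.09 and 10.50 in Canton-S and 4.34 and 4.37 in D18. The log2 difference was 6.44 ± 0.26 (SE, n = 2 and 2), 86.7-fold, with an adjusted p of 0.0121. Hsp26, a small heat shock protein that holds unfolded proteins, read 11.36 and 11.60 in Canton-S and 6.48 and 5.34 in D18, a log2 difference of 5.58 ± 0.40 (47.8-fold, adjusted p = 0.0227). Each strain kept to its own side in both genes. These genes and those below were chosen by their difference on these 4 arrays, so a gap between the strains follows from the choice. mfrn, the mitoferrin that carries iron into mitochondria, read 9.0 and 8.86 in Canton-S and 4.30 and 3.82 in D18 (4.87 ± 0.24, 29.2-fold, adjusted p = 0.0150). MtnC, a metallothionein that binds copper and other metals, read 10.59 and 10.52 against 6.86 and 6.86 (3.69 ± 0.18, 12.9-fold, adjusted p = 0.0150). The zinc transporter gene Zip102B read 8.65 and 8.22 against 5.12 and 4.30 (13.2-fold, adjusted p = 0.0385). For these 3 metal genes the strains were separated by more than 3 log2 units on every pair of arrays. Syn2, a syntrophin of the dystrophin complex, was at 6.64 and 6.16 in Canton-S and 2.71 and 2.51 in D18 (13.8-fold, adjusted p = 0.0212). Edc3, an activator of mRNA decapping, was at 8.44 and 8.51 and 3.81 and 4.46 (20.2-fold, adjusted p = 0.0212). In both genes no array of one strain came near the other strain.

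Further genes upregulated in Canton-S at an adjusted p under 0.05 included genes of matrix, redox and membrane functions. obst-A, a chitin-binding protein of the cuticle matrix, read 6.56 and 6.16 against 1.45 and 1.80 (26.6-fold), with D18 below the arrays' lower quartile. Cda9, a chitin deacetylase, read 7.10 and 7.19 against 3.81 and 4.04 (9.34-fold). Ser6, a serine protease, read 7.90 and 7.12 against 2.30 and 2.97 (29.4-fold). GstD5, a glutathione S-transferase, and dj-1beta, a DJ-1 homologue of the oxidative stress response, were 9.34-fold and 8.75-fold higher. Obp56a, an odorant-binding protein, read 10.14 and 10.25 against 7.04 and 7.57 (7.40-fold), and Ir76a, an ionotropic receptor of chemosensory neurons, 6.06 and 6.30 against 3.15 and 3.33 (7.66-fold). The trafficking gene Rab3-GEF was 6.96-fold higher. RN-tre, a further trafficking gene, and gkt, the tyrosyl-DNA phosphodiesterase of DNA repair, were 7.94-fold and 6.56-fold higher by 1 of their probe sets only at this threshold, while the brightest probe set of RN-tre was 1.41-fold higher in D18 and that of gkt 1.55-fold higher in Canton-S, neither of them called. CG13659, of the ecdysteroid kinase-like family, and CG16775 were 11.8-fold and 11.1-fold higher.

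D18 exceeded Canton-S most in Elovl7, a fatty acid elongase gene, which read 2.93 and 2.84 in Canton-S and 9.05 and 8.90 in D18. The log2 difference was −6.09 ± 0.19 (SE, n = 2 and 2), 68.2-fold in favour of D18, and its adjusted p of 0.00630 was the lowest of the 18769. Both Canton-S values lay under the arrays' lower quartile of 3.09. The study lists this gene, as CG2781, among those upregulated in D18. By the study's qRT-PCR the gene it names ELOVL, taken here to be Elovl7, had the same level in both strains. It was the only gene there whose qRT-PCR departed from the arrays, so the difference rests on the array signal. CG33109 read 3.02 and 3.75 against 8.71 and 9.87 (59.6-fold, adjusted p = 0.0261) and CG12057 5.78 and 5.79 against 10.40 and 12.05 (43.5-fold, adjusted p = 0.0490). The 2 D18 arrays were themselves over 1 log2 unit apart in both of these genes. CG13738 read 4.20 and 3.81 against 8.29 and 8.39 (20.2-fold, adjusted p = 0.0150), with 2 nearly equal D18 arrays. Among genes with a known function, sbb, a nuclear protein that acts in transcription, read 4.13 and 4.63 against 6.88 and 7.32 (6.57-fold). That was 1 of 3 probe sets of sbb, and the brightest was 1.29-fold higher in Canton-S and not called. The study lists qRT-PCR primers for sbb too, and does not name it as departing from the arrays. The spartin gene, whose protein acts on endosomes, and Orp8, an oxysterol-binding-protein relative, were 5.25-fold and 4.83-fold higher in D18. CG11893 and CG3819 were 12-fold and 10.8-fold higher.

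**Figure D1:**
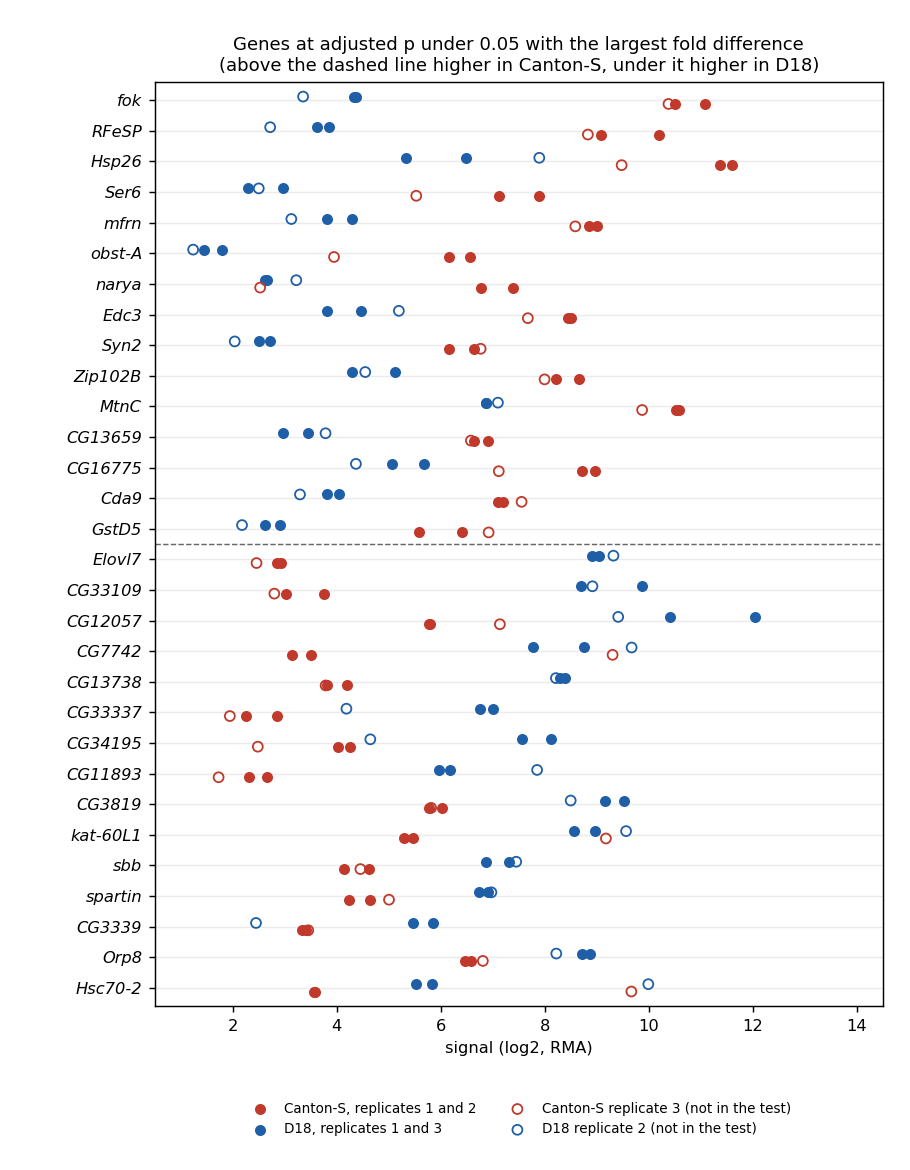
Signal (log2, RMA) of the 15 genes with the largest fold difference in each direction among those at an adjusted p under 0.05; filled points are the 4 tested arrays, open points the 2 arrays left out, red Canton-S and blue D18. The filled red and blue points do not overlap in any of the 30 genes, which follows from choosing them by their difference on these arrays. Open points of narya, CG7742, kat-60L1, CG3339, Hsc70-2, CG34195 and CG33337, among others, depart from the filled points of their strain.

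Transposable elements were called in both directions. R2Dm, an element that inserts into ribosomal RNA genes, read 5.56 and 5.96 in Canton-S and 9.90 and 10.62 in D18 (−4.50 ± 0.31, 22.7-fold higher in D18, adjusted p = 0.0212). The endogenous retrovirus tirant read 3.51 and 3.06 against 7.48 and 6.90 (−3.91 ± 0.29, 15-fold higher in D18, adjusted p = 0.0241). springer, an LTR retrotransposon, went the other way at 8.89 and 9.11 against 6.84 and 5.98 (6.0-fold), with an adjusted p of 0.0855 that missed the threshold. The arrays left out read 5.88 in Canton-S and 9.86 in D18 for R2Dm, 2.77 and 6.74 for tirant, and 9.21 and 5.94 for springer. All 3 of these elements thus lay in the same order on the 6 arrays. The study names a further retrotransposon, with a larger fold in Canton-S than springer, whose values are not given here. Element copies share sequence, so a probe set reads many copies at once.

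The 2 arrays left out took no part in the choice of calls, and the direction on them was compared with the 4 arrays. Of the 514 called probe sets, 457 (88.9%) had the same sign on the pair left out, beside 10564 of all 18769 (56.3%). The count was 375 of 418 for those upregulated in Canton-S and 82 of 96 for those upregulated in D18. Where the pair left out differed by at least 0.5 log2 units, 345 of 369 called probe sets had the same sign (93.5%), beside 60.9% of all probe sets. At over 2-fold in the same direction there were 225 of the 514 (43.8%), beside 4.43% of all, and 47 of the 58 at an adjusted p under 0.05. The pair is 1 array per strain, so no test of its own was made. On the pair left out, in the order Canton-S and D18, fok read 10.38 and 3.35, mfrn 8.59 and 3.13, and Elovl7 2.46 and 9.32. Those 3 genes thus differed on the pair left out by about as much as on the 4 arrays. Hsp26 kept its direction with 9.48 and 7.90, a difference of 1.58 in place of 5.58.

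**Figure D2:**
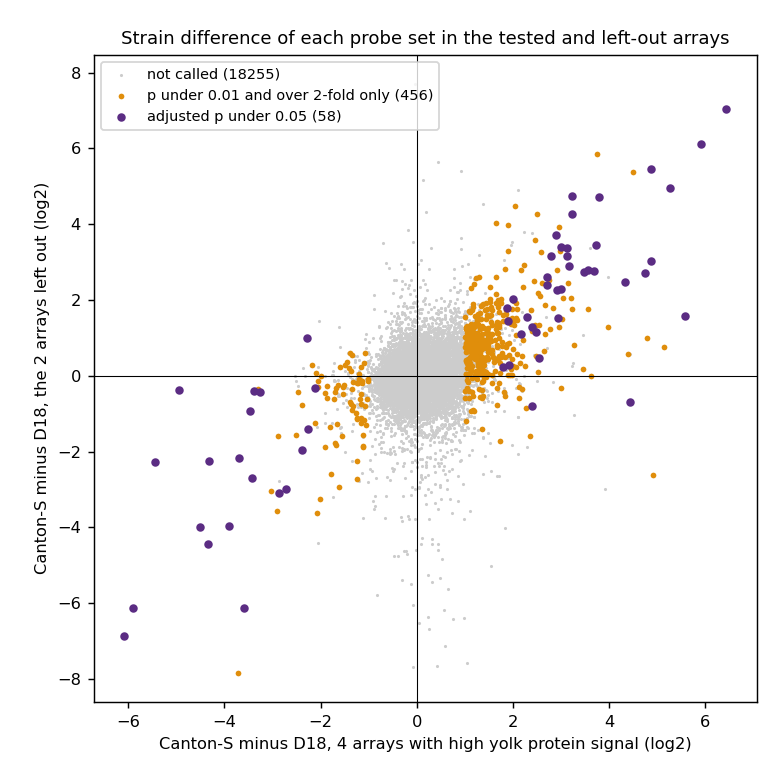
Strain difference (Canton-S minus D18, log2) of each of the 18769 probe sets on the 4 tested arrays (x axis) and on the 2 arrays left out (y axis). Purple points, 58 at an adjusted p under 0.05, have the same sign on both axes except for 3; 57 of all 514 called points have opposite signs.

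Opposite signs were found in 3 of the 58. mat read 9.03 and 9.24 in Canton-S and 6.89 and 6.59 in D18 on the 4 arrays (5.27-fold, adjusted p = 0.0355), but 8.43 and 9.24 on the pair left out. narya, a RING-finger protein required for meiotic DNA breaks in the oocyte, read 6.78 and 7.38 against 2.67 and 2.63 (4.43 ± 0.26, 21.6-fold, adjusted p = 0.0212), but 2.53 and 3.22 on the pair left out. CG3339 read 3.42 and 3.32 against 5.86 and 5.46 (4.88-fold higher in D18, adjusted p = 0.0447), but 3.45 and 2.45. In narya and CG3339 at least 1 array of the pair left out was under 3.09, the highest of the 4 arrays' lower quartiles, and in mat both were well above it.

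Some genes called in Canton-S had low signal on the arrays left out. Send1, a serine protease of the spermatheca, the sperm storage organ, read 9.76 and 10.27 in Canton-S and 7.07 and 6.05 in D18, and 2.57 and 2.38 on the arrays left out. At the study's thresholds it was upregulated in Canton-S, by 3.45 ± 0.40 log2 units (10.9-fold, adjusted p = 0.0695). Ser12, another serine protease, followed the same pattern with 10.60 and 11.21 against 7.76 and 6.81 and 2.71 and 2.72 on the arrays left out (12.2-fold, adjusted p = 0.0644). In both genes all 4 arrays stood above the arrays left out by over 3 log2 units. rhi, the rhino protein that marks piRNA source loci in the germ line, read 8.05 and 8.48 against 6.31 and 6.28, with 2.94 and 2.91 on the arrays left out (1.97 ± 0.22, 3.92-fold higher in Canton-S, adjusted p = 0.0691). By their brightest probe set, 2.92% of 11982 genes were called in Canton-S and 0.634% in D18, and of 27 ovary germ line genes rhi alone was called. The germ line list's median difference was −0.30, beside −0.05 over all genes, and became 0.04 without Canton-S replicate 1. nvd, the neverland oxygenase of ecdysteroid synthesis and also chosen after its values were seen, was 4.80-fold higher in Canton-S (4.56 and 5.43 against 2.73 and 2.73). CG43090 and CG43074, chosen after their values were seen, read 10.87 and 11.86 and 11.12 and 11.60 in Canton-S and 8.30 and 8.43 and 9.44 and 9.59 in D18, and 1.76 to 2.24 on the arrays left out. Their differences were 8.01-fold and 3.59-fold (adjusted p = 0.0769 and 0.0869). On the arrays left out nvd was at 1.74 and 2.60. None of the 6 genes Send1, Ser12, rhi, nvd, CG43090 and CG43074 lost its call when 1 array was left out.

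Eggshell genes lay on the side of D18. All 7 chorion genes measured, which encode the outer eggshell, had a higher mean in D18, with medians of 11.66 and 11.44 on the Canton-S arrays and 12.94 and 12.48 on the D18 arrays. Cp16 read 11.14 and 10.60 against 12.48 and 11.92 (2.51-fold higher in D18, adjusted p = 0.249) and Cp19 11.66 and 11.44 against 12.94 and 12.48 (2.23-fold, adjusted p = 0.221), and the other 5 were not called. Of 17 vitelline membrane and inner eggshell genes, 16 had a higher mean in D18 and 3 were called: Vm26Ac, a vitelline membrane protein, at 6.31 and 7.24 against 9.75 and 8.60 (5.25-fold, adjusted p = 0.221), dec, the defective chorion protein, at 9.52 and 10.45 against 12 and 11.35 (3.23-fold, adjusted p = 0.263), and CG15570 (2.02-fold). All 5 called genes were at 2.35 to 4.15 on the arrays left out. The medians of the lists, −0.88 for chorion and −1.21 for the vitelline membrane and inner eggshell, compare with −0.05 over all genes, of which 0.634% were called in D18. No eggshell gene reached the adjusted threshold, and the calls depended on single arrays: leaving out Canton-S replicate 1 ended the calls of Vm26Ac (3.81-fold without it), dec (2.34-fold), Cp19 (2.42-fold) and CG15570 (2.08-fold). Leaving out Canton-S replicate 2 ended those of Cp16 (2.08-fold), Cp19 (2.07-fold) and CG15570 (1.95-fold), D18 replicate 1 those of Cp16 (2.06-fold), Cp19 (1.91-fold) and dec (2.58-fold), and D18 replicate 3 that of CG15570 (1.77-fold). Without Canton-S replicate 2 and without D18 replicate 3 the vitelline list had 5 and 6 calls. On the pair left out, where these genes were near background, the lists' medians were 0.17 and −0.13. Muscle, neuronal and digestive lists had median differences of the other sign on the same arrays, and their part in the eggshell difference was not tested.

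**Figure D3:**
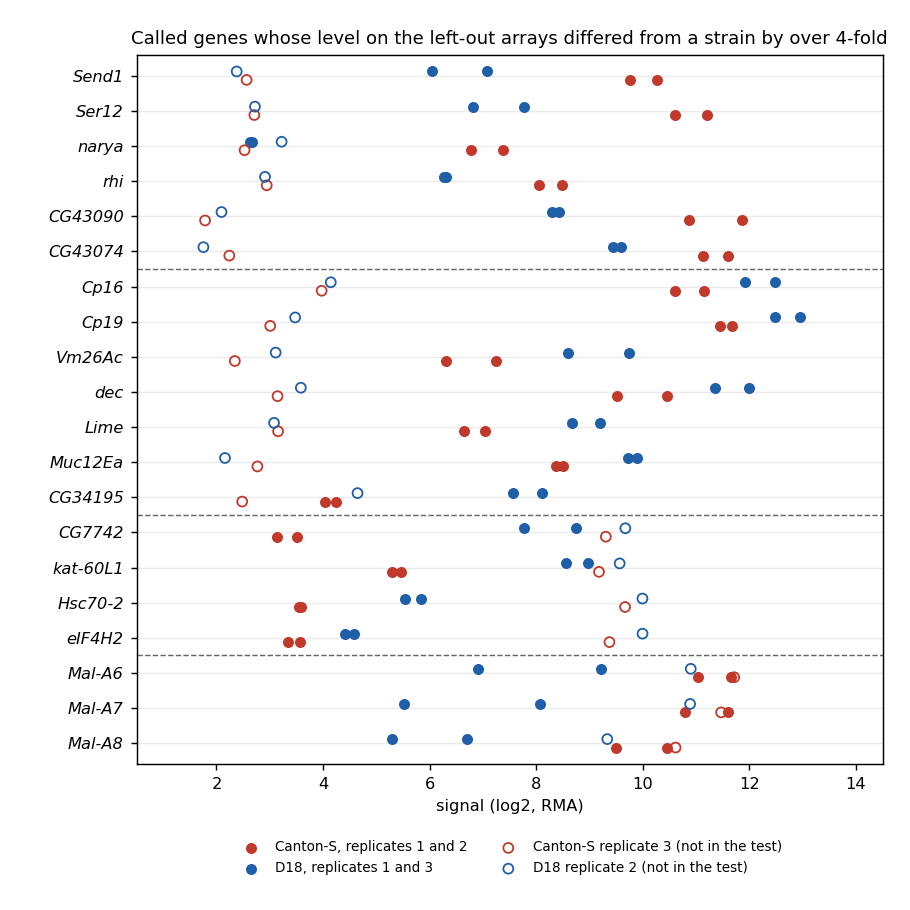
Signal (log2, RMA) of 20 called genes whose level on the 2 arrays left out (open points) differed over 4-fold from the higher or the lower strain; filled points are the 4 tested arrays, red Canton-S and blue D18. From the top, dashed lines separate genes low on the arrays left out and upregulated in Canton-S, the same upregulated in D18, genes high on the arrays left out and upregulated in D18, and 3 maltase genes low in D18 on the tested arrays alone.

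Low signal on the arrays left out was counted over the whole table. Both arrays left out were over 4-fold below the D18 mean in 33 of 96 (34.4%), and over 4-fold below the Canton-S mean in 15 of the 418 upregulated in Canton-S (3.59%), beside 5.83% below the higher strain over all probe sets. Besides eggshell genes, the 33 held Lime (7.04 and 6.65 against 8.66 and 9.20, 4.26-fold, adjusted p = 0.0907), the mucin gene Muc12Ea (8.50 and 8.37 against 9.72 and 9.90, 2.60-fold), CG34195 (13-fold, adjusted p = 0.0212) and CG33337 (20.1-fold, adjusted p = 0.0212). They also held Set8, a histone H4 methyltransferase (2.36-fold), whose call ended without Canton-S replicate 1 (1.90-fold), D18 replicate 1 (2.14-fold) or D18 replicate 3 (2.61-fold), the p then being over 0.01. Lime, Muc12Ea and Set8 were chosen after their values were seen.

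The opposite pattern, high on the arrays left out and raised in D18 among the 4, was met in 7 of the 96 (7.29%), beside 9.62% of all probe sets above the lower strain. Both arrays left out were over 4-fold above the D18 mean in 34 of the 418 upregulated in Canton-S (8.13%). Both shares were below that of all probe sets. CG7742 read 3.14 and 3.51 in Canton-S and 8.75 and 7.77 in D18 (−4.94 ± 0.37, 30.6-fold, adjusted p = 0.0241), with 9.31 and 9.67 on the arrays left out. kat-60L1, a katanin-like microtubule-severing protein, read 5.30 and 5.47 against 8.96 and 8.55 (−3.38 ± 0.23, 10.4-fold, adjusted p = 0.0212), with 9.18 and 9.57 on the arrays left out. Hsc70-2, a heat shock cognate protein, read 3.59 and 3.55 against 5.53 and 5.83 (4.32-fold, adjusted p = 0.0447), with 9.67 and 9.99. In CG7742 and kat-60L1 the D18 arrays were within 2 log2 units of the arrays left out, and in Hsc70-2 they stayed well below them. The testis and sperm list had no called gene of 31 and a median difference of −0.07. Of all genes, 2.92% were called in Canton-S and 0.634% in D18. eIF4H2, a translation factor relative, read 3.35 and 3.56 against 4.58 and 4.42 and 9.37 and 9.99 on the arrays left out (2.06-fold, adjusted p = 0.20, not called without Canton-S replicate 1, D18 replicate 1 or D18 replicate 3, 1.91-fold to 2.18-fold).

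Median differences of other tissue lists lay in 2 opposite directions on the 4 arrays, with 2 calls in all. Their counts stand beside 2.92% of all genes called in Canton-S and 0.634% in D18. Of 26 maternal cell cycle and replication genes 25 had a higher mean in D18 (median −0.61), with no call in either direction, and the median was −0.35 without Canton-S replicate 1 and −0.39 without D18 replicate 1. Of 21 flight muscle genes 18 were higher in Canton-S (median 0.72), of 30 neuronal genes 26 (0.47) and of 17 photoreceptor genes 15 (0.64), and the 2 calls among them were the photoreceptor genes Cpn, a calcium-binding protein of the rhabdomere (9.45 and 8.55 against 7.12 and 7.0, 3.83-fold, adjusted p = 0.163), and trp, the light-activated calcium channel (8.89 and 8.72 against 7.31 and 7.84, 2.35-fold, adjusted p = 0.218). trp was not called without Canton-S replicate 1 (2.21-fold), Canton-S replicate 2 (2.49-fold) or D18 replicate 1 (1.96-fold). The muscle list's median level was 11.55 on Canton-S replicate 1, 10.35 on Canton-S replicate 2, and 10.26 and 9.87 on the D18 arrays. Its difference fell to 0.09 without Canton-S replicate 1 and was 1.39 without Canton-S replicate 2, so 1 array decided its size. The neuronal median was 0.03 without D18 replicate 1 and 0.24 without Canton-S replicate 1, and the list had 7 calls higher in Canton-S without D18 replicate 3, and the photoreceptor list 6 without Canton-S replicate 2. On the pair left out the muscle, neuronal and photoreceptor medians were −0.77, −0.39 and −0.40, the reverse of the 4 arrays. Circadian clock genes were higher in Canton-S in 11 of 13 (median 0.45), with no call, but the median was 0.14 without D18 replicate 1, and 2 were called without D18 replicate 3.

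**Figure D4:**
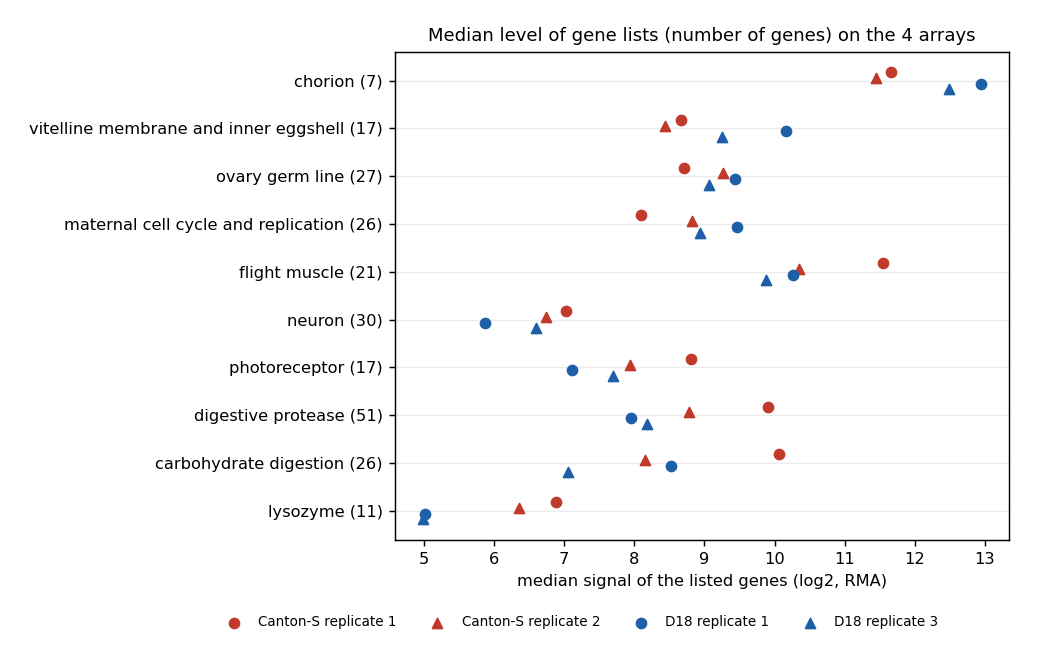
Median signal (log2, RMA) of the genes of 10 lists on each of the 4 arrays, red for Canton-S and blue for D18, with the number of genes in brackets. Chorion and vitelline lists are higher on both D18 arrays, photoreceptor, digestive protease and lysozyme lists on both Canton-S arrays, and Canton-S replicate 1 stands highest in flight muscle (11.55) and carbohydrate digestion (10.06).

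Called digestive genes were, but for 1, upregulated in Canton-S. Of 51 digestive proteases 45 had a higher mean in Canton-S (median 0.67) and 14 were called, all in Canton-S, where 2.92% of all genes were called by their brightest probe set. Among them CG3739 read 9.21 and 8.62 against 6.82 and 5.06 (7.87-fold, adjusted p = 0.218). CG11912 read 8.05 and 6.94 against 4.67 and 4.63 (7.17-fold, adjusted p = 0.105). CG6337 read 8.53 and 8.22 against 6.53 and 6.19 (4.04-fold, adjusted p = 0.0695). The trypsin-like Phae2 read 8.92 and 8.45 against 6.70 and 5.92 (5.19-fold, adjusted p = 0.109). All of these are proteolysis genes that the study had called in Canton-S from the 6 arrays, the pair left out included. The list was built with further such genes, so its counts and direction are partly fixed in advance. Ser6 alone passed the adjusted threshold. Ser12, described above, is 1 of the 14 by its name only. On the arrays left out Ser12 was at 2.71 and 2.72, where the list's medians were 8.86 and 8.12. The count was 8 without Canton-S replicate 1 and 9 without D18 replicate 3. The list kept its sign on the pair left out (median 0.59, 39 of 51 higher in Canton-S). Eggshell lists were lower on the same Canton-S arrays, and their part in the digestive difference was not tested. In carbohydrate digestion 5 of 26 genes were called in Canton-S and 1 in D18, and only 1 call in Canton-S was left without Canton-S replicate 1. That one was Mal-A8, a maltase, which read 10.44 and 9.51 in Canton-S and 6.70 and 5.30 in D18 (3.97 ± 0.55, 15.7-fold, adjusted p = 0.105). Mal-A7 read 11.60 and 10.78 against 8.08 and 5.52 (20.9-fold) and Mal-A6 11.66 and 11.03 against 9.22 and 6.91 (9.69-fold). The D18 arrays differed by over 2 log2 units in both, and neither was called without Canton-S replicate 1 (15.8-fold and 7.77-fold) or without Canton-S replicate 2 (27.8-fold and 12.1-fold). On the arrays left out the maltases were high in both strains, Mal-A7 at 11.47 and 10.89 and Mal-A8 at 10.61 and 9.33. tobi, an alpha-glucosidase gene under insulin control, was the exception in D18, at 4.05 and 3.44 against 8.44 and 6.47 (13.1-fold, adjusted p = 0.183), and it was not called without Canton-S replicate 1 (16.1-fold) or Canton-S replicate 2 (10.6-fold).

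Immune genes of the gut and haemolymph are set beside the 2.92% of all genes called in Canton-S and 0.634% in D18, or 350 genes against 76. Of 11 lysozyme genes 9 were higher in Canton-S (median 0.78) and 3 were called, with LysX at 6.95 and 8.23 against 5.02 and 4.26 (7.74-fold, adjusted p = 0.151) and CG6429 at 6.88 and 6.22 against 3.29 and 3.97 (7.59-fold, adjusted p = 0.0748). The count was 2 without Canton-S replicate 2 or D18 replicate 1 and 4 without Canton-S replicate 1 or D18 replicate 3. Of 20 antimicrobial peptide genes 4 were called in Canton-S and 1 in D18, and the count in Canton-S was 2 without Canton-S replicate 2. Drsl5, a drosomycin relative, read 9.19 and 9.03 in Canton-S and 6.62 and 7.83 in D18 (3.70-fold, adjusted p = 0.245). It read 9.34 and 6.06 on the pair left out, and its log2 difference ran from 1.28 to 2.49 with 1 array left out. AttD, an attacin, and Drsl2, another drosomycin relative, read 4.48 and 4.77 and 5.41 and 5.59 in Canton-S. In D18 they read 3.36 and 3.28 and 4.15 and 4.12 (2.48-fold and 2.57-fold), while BomS5, a bomanin, was 2.12-fold higher in D18. BomS5 was not called without Canton-S replicate 1, D18 replicate 1 or D18 replicate 3 (1.83-fold to 2.23-fold). Def, the defensin gene, was 2.03-fold higher in Canton-S and called. On the pair left out, in the order Canton-S and D18, AttD (2.78 and 3.33), Def (6.40 and 7.59) and BomS5 (9.35 and 8.74) had the opposite direction. PGRP-SC2, an amidase that cleaves peptidoglycan, read 11.30 and 10.98 against 9.06 and 7.12 (8.26-fold, adjusted p = 0.226), and its call ended without Canton-S replicate 1 (7.41-fold) or Canton-S replicate 2 (9.21-fold).

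Metal handling was the list with the most genes at an adjusted p under 0.05, 3 of 41 (mfrn, Zip102B and MtnC), and 6 genes were called in all, every one in Canton-S, where 2.92% of all genes were called. The study had called mfrn, Zip102B and Zip71B in Canton-S from the 6 arrays, and mfrn entered the list by name. The list's counts and its rank are thus partly fixed in advance. ZnT41F, a zinc exporter, read 8.08 and 7.72 against 6.58 and 6.53 (2.54-fold, adjusted p = 0.134), and MtnB, a second metallothionein, 7.10 and 7.57 against 5.83 and 5.15 (3.58-fold, adjusted p = 0.157). Zip71B, a zinc importer, was 3.42-fold higher. Between 6 and 7 of the list were called in each fit that left out an array, although MtnB had the opposite direction on the pair left out (5.04 in Canton-S and 5.58 in D18) and was not called without Canton-S replicate 2 (3.04-fold) and Zip71B was not without Canton-S replicate 1 (2.72-fold). The list's median difference was 0.27, and 33 of 41 genes were higher in Canton-S.

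Stress and antioxidant lists had single large members and medians near that of all genes, of which 2.92% were called in Canton-S and 0.634% in D18. Of 14 heat shock protein genes Hsp26 was called in Canton-S and Hsc70-2 in D18, and the median of 0.01 became −0.24 with the arrays set to a common median. Of 21 antioxidant genes dj-1beta and Prx6c, a peroxiredoxin, were called in Canton-S, Prx6c at 9.87 and 8.49 against 6.20 and 5.74 (9.23-fold, adjusted p = 0.126), and the list's median of 0.11 became −0.15 with a common median. smp-30, a regucalcin relative studied in cold acclimation, read 11.55 and 10.61 in Canton-S and 7.80 and 5.36 in D18 (4.50 ± 0.83, 22.6-fold). Its D18 arrays were over 2 log2 units apart, its adjusted p was 0.195, and it was not called without Canton-S replicate 1 (16.3-fold).

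Calls of detoxification and transport genes stand beside 2.92% of all genes called in Canton-S and 0.634% in D18. Of 88 cytochrome P450 genes, which oxidise hormones and foreign compounds, 62 were higher in Canton-S (median 0.42, and 0.25 without Canton-S replicate 1), 8 were called there and 2 in D18, a split near the 350 against 76 of all genes. Cyp28a5 read 9.16 and 8.34 against 5.60 and 4.78 (3.56 ± 0.40, 11.8-fold, adjusted p = 0.0691), Cyp4p3 7.08 and 6.37 against 4.73 and 4.45 (4.38-fold) and Cyp4p2 6.98 and 6.55 against 4.90 and 4.64 (3.99-fold). Cyp4p3 had the opposite direction on the pair left out, at 7.45 in Canton-S and 8.04 in D18. In D18, Cyp12c1 (5.55 and 5.22 against 7.51 and 6.84) was 3.46-fold and Cyp6a14 3.17-fold higher, and their calls ended without Canton-S replicate 2 (3.09-fold) and Canton-S replicate 1 (3.03-fold), in that order. The P450 count in Canton-S was 20 without Canton-S replicate 2 and 5 without D18 replicate 3. UDP-glycosyltransferases had 2 calls of 35 in Canton-S, Ugt302E1 (4.21-fold) and Ugt303B3 (2.26-fold, not called without Canton-S replicate 1 at 2.1-fold, Canton-S replicate 2 at 2.42-fold or D18 replicate 1 at 1.86-fold), and a median of 0.19 that became −0.06 with a common median. Organic anion and ABC transporters had 4 of 27 called in Canton-S (median 0.67), among them Oatp58Dc at 8.96 and 8.85 against 7.23 and 7.65 (2.77-fold, adjusted p = 0.128), and had 2 without D18 replicate 1 and 7 without D18 replicate 3. Besides Oatp58Dc, the transporters called on all 4 arrays were CG5002, Mdr50 and CG15553. The study had called these in Canton-S, and they entered the list by name. The transporter count was thus partly fixed in advance, as was that of the next list through CG13793 and CG33296. Neurotransmitter sodium symporters had 4 of 19 called in Canton-S, led by CG13793 at 7.35 and 6.50 against 4.01 and 3.39 (9.34-fold, adjusted p = 0.0695) and CG33296 (3.68-fold, adjusted p = 0.0490), and 1 in D18. Their count was 2 without Canton-S replicate 1 or D18 replicate 1.

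Lipid, chitin, cuticle and sensory lists were mixed, beside 2.92% of all genes called in Canton-S and 0.634% in D18, and the cuticle, odorant-binding and chemoreceptor lists had a smaller share than that called in Canton-S. Of 28 elongase and desaturase genes Elovl7 and sit, a further elongase relative (2.13-fold), were called, both in D18, and none in Canton-S. sit was not called without Canton-S replicate 1, D18 replicate 1 or D18 replicate 3 (1.85-fold to 2.21-fold). On the pair left out sit was at 6.58 in Canton-S and 6.24 in D18, the opposite direction. CG6283, on the list of lipid storage and lipase genes, read 11.95 and 11.20 in Canton-S and 7.76 and 5.11 in D18 (35.2-fold, adjusted p = 0.156), with 11.07 and 10.31 on the arrays left out, and it was not called without Canton-S replicate 1 (27.1-fold). Cht5 and Cht8, chitinases, were 3.33-fold and 3.27-fold up in Canton-S. On the pair left out Cht5 had the opposite direction, at 5.71 in Canton-S and 7.44 in D18. Of 48 genes of chitin metabolism and peritrophic matrix 6 were called in Canton-S and 1 in D18. That count was 15 without Canton-S replicate 2. Of 109 cuticle protein genes 76 were higher in D18 (median −0.28), with 2 called in Canton-S and 1 in D18, and without D18 replicate 1 there were 18 called in D18. Of 49 odorant-binding protein genes Obp56a alone was called, and 9 were without D18 replicate 3. Of 166 chemoreceptor genes, most of them near background, Ir76a was called in Canton-S and Gr61a in D18, the latter not without Canton-S replicate 1, Canton-S replicate 2 or D18 replicate 1 (1.79-fold to 2.36-fold).

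No gene of the nuclear oxidative phosphorylation list (76), the cytoplasmic ribosomal protein list (40), the ecdysteroid and juvenile hormone list (18) or the insulin list (10) was called. Of all genes, 2.92% were called in Canton-S and 0.634% in D18, and at these shares a small list can hold no call. The medians of these 4 lists, 0.13, 0.05, 0.15 and 0.19, all became negative with a common median, from −0.20 to −0.07. RFeSP, the Rieske iron-sulfur protein of respiratory complex III, is read by a pair of probe sets that disagreed. One read 10.19 and 9.08 in Canton-S and 3.63 and 3.85 in D18 (59.7-fold, adjusted p = 0.0212), and the brighter one 11.50 and 10.51 against 10.93 and 10.77 (1.11-fold, adjusted p = 0.867). The study lists qRT-PCR primers for RFeSP and names ELOVL alone as departing from its arrays. Which of the probe sets those primers match was not tested.

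**Figure D5:**
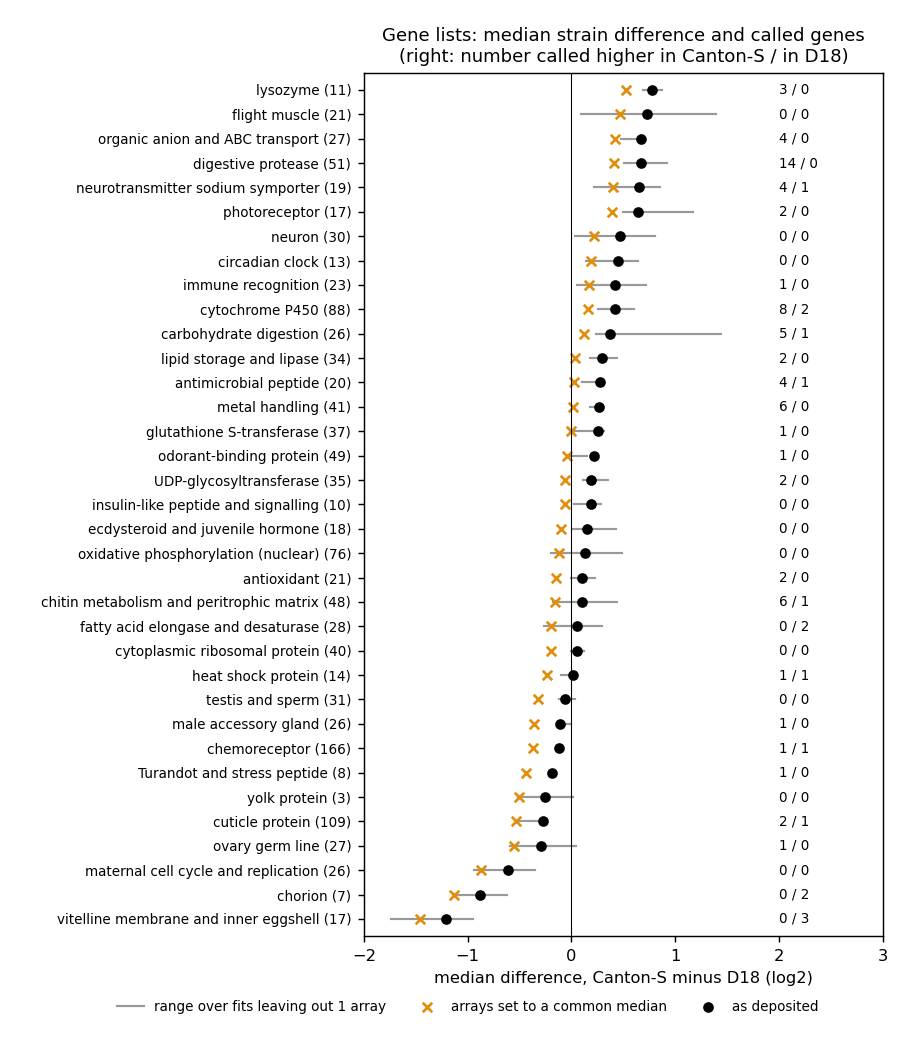
Median difference (Canton-S minus D18, log2) over the genes of 35 lists, with the number measured in brackets; black points are the deposited values, grey lines the range over the 4 fits that left out 1 array, crosses the arrays set to a common median, and figures on the right the genes called in Canton-S / in D18. Eggshell lists lie lowest (−1.21 and −0.88) and lysozymes highest (0.78). Digestive proteases hold the most calls (14), some of them genes that the study itself had called. The yolk protein and accessory gland lists chose the arrays.

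Disagreement between probe sets of a gene was common. The 514 called probe sets named 449 genes, of which 53 have several probe sets of their own. In 8 of the 53 all were called, in 45 at least 1 was not, and in 21 at least 1 had the opposite sign. Among genes at an adjusted p under 0.05 the same held for CG3301, Orp8, RFeSP, RN-tre, fok, gkt, ric8a and sbb, in none of which all probe sets were called at that threshold and in 6 of which a probe set had the opposite sign.

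Some called genes were neighbours on the chromosome. In all, 2 runs of 3 or more neighbouring measured genes were called, with 9 genes, each upregulated in Canton-S. The first held Mal-A6, Mal-A7, Mal-A8, mtt and CG12780. mtt, a metabotropic receptor gene, was 2.63-fold and CG12780 4.44-fold higher (8.90 and 7.93 against 6.53 and 6.0). mtt was not called without Canton-S replicate 1 (2.50-fold), Canton-S replicate 2 (2.77-fold) or D18 replicate 1 (1.90-fold). The second held CG31087 (2.92-fold), CG10559 (2.75-fold), CG10553 (3.12-fold) and CG10560 (2.06-fold), genes of the ecdysteroid kinase-like family, as are CG13659 and CG11893, which went in opposite directions. CG10559 read 5.47 and 5.66 in Canton-S and 4.16 and 4.06 in D18, and 5.83 and 4.07 on the arrays left out, so all 6 arrays kept the strains apart. CG10560 was not called without Canton-S replicate 1 (2.11-fold), Canton-S replicate 2 (2.0-fold) or D18 replicate 1 (1.71-fold).

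The study's own design fits the 6 arrays by strain. With all 6, limma called 239 probe sets (1.27%) at the same thresholds, 204 of them among the 514, so 310 were called on the 4 arrays alone (246 upregulated in Canton-S and 64 in D18) and 35 with all 6 alone. Of the 310, 253 (81.6%) had the same sign on the pair left out. That pair enters the 6-array fit and so helped to choose the 310. The share therefore cannot be set against the 56.3% of all probe sets and is no check of direction. The 4-array calls with the largest fold that the 6 arrays did not give were CG6283, CG14957 (29.9-fold), CG42807 (27.5-fold) and narya in Canton-S, and CG7742, CG34195, kat-60L1 and CG31898 (9.85-fold) in D18. CG42807 read 10.14 and 9.71 in Canton-S and 4.38 and 5.91 in D18, and 9.42 and 8.43 on the arrays left out. CG31898 read 2.05 and 3.04 against 6.14 and 5.55, and 2.78 and 3.13. In both, the strains did not overlap on the 4 arrays, which follows from choosing them by their difference there. On the pair left out both kept their direction with a smaller log2 difference, 0.997 for CG42807 and −0.35 for CG31898.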

How the data were processed

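Whole-fly RNA of Canton-S and D18 was measured on 6 Affymetrix Drosophila Genome 2.0 arrays. The authors corrected background and normalized with RMA in the Transcriptome Analysis Console and deposited log2 values, whose range here was 0.98 to 14.07. The scale of an array carries no read depth, and 2 arrays per strain limit the precision. The 4 arrays were fitted by strain with limma 3.58.1 (lmFit, eBayes, no other term) in R 4.3.3, without filtering, on 18769 probe sets. Calls used p under 0.01 and over 2-fold, after the study's methods, and separately a Benjamini-Hochberg adjusted p under 0.05. The labels call the arrays biological replicates, and the p-values measure the spread between these pools only. Folds are ratios on the linear scale of the log2 means. The fit was checked on simulated data.

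Platform annotation, with symbols updated through the RefSeq gene table of assembly Release 6 plus ISO1 MT, gave 1 gene for 13647 of the probe sets, several for 402 and none for 4720. The retrotransposon names come from the study. For the lists and the counts of genes, a gene was read by its brightest own probe set, and a gene named for its own call by the called probe set of lowest p, with the brightest given where it is another one. A rule set the genes to be named. It took from each list up to 4 called members of largest fold, and the 15 largest folds per direction at the adjusted threshold. It also took those at that threshold of opposite sign on the left-out pair, 8 per direction absent from the 6-array fit, and neighbours. Not all of these are named. Others, such as CG6337, Phae2, ZnT41F, Zip71B, Cyp6a14 and Rab3-GEF, were added outside the rule, with their values seen. The arrays, the 35 lists and the rule were chosen with earlier results of these data known. Some lists, those of digestive proteases, metal handling, transporters and symporters among them, name genes the study had called on these arrays, so their counts are partly fixed in advance. A list of transposable elements was dropped because it matched only T-box genes. Alternatives were other scalings, filters, moderation settings and thresholds, and leaving out each array.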

Additional observations from a re-analysis of the deposited data

Results flagged for a closer look

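The following 7 genes had one direction on the 4 arrays and the opposite direction on the pair left out, and either passed the adjusted threshold or were reversed by over 1 log2 unit, so that the strain difference differed between the 2 kinds of array. This difference was not tested, since the pair is 1 array per strain. Values are Canton-S minus D18 on the log2 scale, first on the 4 arrays and then on the pair left out. For CG3339 they were −2.29 and 1.005. For mat they were 2.40 and −0.81. For narya they were 4.43 and −0.70, with 3 of the 4 values of D18 and of the pair left out under the highest lower quartile of 3.09. Cht5, a chitinase, had 1.74 and −1.73. Def, the antimicrobial peptide defensin, had 1.02 and −1.20, and was called in 1 of the 4 fits that left out an array. CG9826 had 1.35 and −1.41. CG14957 had 4.90 and −2.61, and its Canton-S arrays themselves read 9.91 and 7.01. Reversals of smaller size among other called genes in the text, on the pair left out alone, were −0.54 for MtnB, −0.55 for AttD, −0.59 for Cyp4p3, 0.60 for BomS5, 0.34 for sit, and, in genes low on both arrays left out, −0.01 for Ser12, −0.31 for CG43090, −0.86 for nvd, 0.08 for Lime and 0.61 for Muc12Ea.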

How the results depend on the processing

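With 2 arrays per strain, and 1 in a strain when an array was left out (the lone array is then assumed to vary like the others), the counts moved with the processing, and causes were not tested. With the arrays set to a common median 264 and 205 probe sets were called in Canton-S and D18, and cpx became −0.19. Without moderation the counts were 68 and 22, and 0 and 0 at an adjusted p under 0.05 by limma's unmoderated fit, where 1477 had p under 0.05. At the adjusted threshold, leaving out low values gave 89 in Canton-S, an intensity trend 81, and probe sets of single transcripts 12 in D18. At over 4-fold 97 and 35 were called. With 1 array left out the counts ran from 269 to 686 in Canton-S and from 81 to 147 in D18, and at the adjusted threshold from 0 to 45 and from 0 to 30. cpx ranged from −0.71 to 0.83 and Snap25 from −0.018 to 1.33. The share with the same sign on the pair left out was 93.5% at 0.5 log2 units or more. Of the 514 calls, 387 were kept with quantile normalization and 356 with a common median. Of 35 list medians 11 changed sign with a common median, 3 with quantile normalization and 2 to 7 with 1 array left out. No paired analysis was possible because the 4 arrays share only replicate number 1 between the strains.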

Other observations

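Some called genes outside the groups above had large values. CG12057, CG33109 and CG13738, upregulated in D18, were at 9.41, 8.92 and 8.22 on D18 replicate 2 and at 7.14, 2.80 and 3.79 on Canton-S replicate 3. Serpins, inhibitors of serine proteases, included Spn47C (6.55 and 6.19 in Canton-S and 3.68 and 4.0 in D18, 5.78-fold, adjusted p = 0.0388) and Spn77Bc (4.75 and 4.63 against 3.19 and 3.30, 2.73-fold, adjusted p = 0.0869), and both were higher on the arrays left out (8.23 and 7.77, 12.29 and 10.78). The mucin-type genes Mur18B (12.25 and 12.04 against 10.27 and 10.19, 3.77-fold, adjusted p = 0.0490) and Muc11A (11.34 and 11.23 against 9.80 and 10.08, 2.55-fold, adjusted p = 0.124) were upregulated in Canton-S on the 4 arrays and lay at 12.23 and 11.95, and 11.48 and 11.19, on the arrays left out. These genes were chosen after their values were seen.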
